A study of Mus musculus with 2 samples.

Results

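The 9 genes described here belong to the NRF2 and glutathione antioxidant system of the liver. They were taken by symbol from the deposited files: *Nfe2l2*, *Keap1*, *Nqo1*, *Gclc*, *Gclm*, *Gsr*, *Srxn1*, *Gpx1* and *Cat*. Each of the 9 symbols occurred in 1 of the 53342 rows of both files. The series compared the liver of male iFIRKO mice, in which tamoxifen induces loss of the insulin receptor from adipocytes, with that of control mice, with 1 library per group. The iFIRKO genotype was Adipoq-CreERT2; Insr flox/flox, in which the adiponectin promoter drives a tamoxifen-dependent Cre, so that liver cells themselves are not the target of the deletion. The labels give the control as WT, whereas the study's methods describe its control mice as IR flox/flox. Mice of both groups were 7 weeks old, received 100 mg/kg of tamoxifen on each of 5 days and were sampled 3 days after the last dose. Neither source states how many mice went into a library. With 1 library per group there was no replicate check, no p-value was computed, and the intervals below compare these 2 libraries rather than the genotypes.

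NRF2, the protein encoded by *Nfe2l2*, is a transcription factor that switches on detoxifying and antioxidant genes. In unstressed cells KEAP1 holds NRF2 and, through a cullin 3 ubiquitin ligase, passes it to the proteasome. Electrophiles and oxidants modify KEAP1, after which NRF2 accumulates, pairs with small MAF proteins and binds antioxidant response elements in its target genes. NRF2 is controlled largely through the stability of the protein, which these mRNA libraries did not measure. Glutathione, which the liver makes in large amounts, is the substrate that glutathione peroxidases use to reduce peroxides, and it is recycled with NADPH.

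The antioxidant response element has the core TGACNNNGC, where N is any base. Both strands of the window from 250 bases before to 50 bases after each start site were searched for it in the RefSeq promoter sequences of GRCm38.p6, which held 7 of the 9 genes. *Gclc* and *Gsr* were not in that table. The core was found in 3 of these 7 genes, in 14.0% of all 27025 genes with such a window and in 16.9% of the genes tested below that had one. The matches are shown with the core in capitals, each with 10 bases on either side, to show the letters that the search found. Distances are from the RefSeq start site to the base of the core that comes first in the direction of the gene.
*Nfe2l2*, chr2:75704885-75704913, minus strand, core 240 bases before the start site: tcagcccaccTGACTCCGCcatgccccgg
*Gclm*, chr3:122245413-122245441, minus strand, against the direction of the gene, core 134 bases before the start site: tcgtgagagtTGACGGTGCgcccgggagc
*Srxn1*, chr2:152105542-152105570, minus strand, against the direction of the gene, core at base 29 of the transcript: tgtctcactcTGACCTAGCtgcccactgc
A match is a description of letters and not of a bound site. The windows of *Keap1*, *Nqo1*, *Gpx1* and *Cat* held no match, and more distant elements lie outside these windows.

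None of the 9 genes passed the 1.5-fold threshold of the study's methods in either direction. Of all 13400 genes tested, 4.46% were more than 1.5-fold higher and 7.28% more than 1.5-fold lower in the iFIRKO library, 11.7% in all. The largest differences among the 9 were those of the regulator *Nfe2l2*, the quinone reductase *Nqo1* and the sulfiredoxin *Srxn1*, at 1.34, 1.31 and 1.22 times the control value. The glutathione synthesis and recycling genes *Gclc*, *Gclm* and *Gsr* lay between 0.992 and 1.02 times the control value. The abundant peroxide-removing enzymes stood on opposite sides of it, *Gpx1* at 0.893 times and *Cat* at 1.10 times. The log2 fold change of the iFIRKO over the control value was above 0 for 7 genes and below 0 for 2, with a median of 0.085, beside a median of 0.0075 over all tested genes, of which 51.3% were above 0. Of the 9 genes, 6 lay between the quartiles of all tested genes, -0.19 and 0.17, and the other 3 were *Nfe2l2*, *Nqo1* and *Srxn1*.

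**Figure D1:**
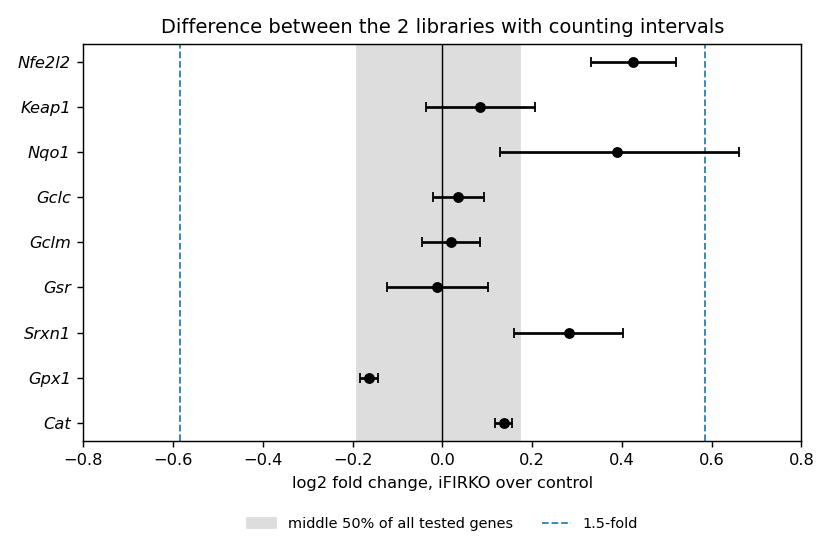
Log2 fold change of the iFIRKO over the control library for the 9 genes (points, 1 library per group), with 95% exact intervals for counting error (bars), the range between the quartiles of all 13400 tested genes (grey) and the 1.5-fold threshold (dashed). *Nfe2l2* (0.43), *Nqo1* (0.39) and *Srxn1* (0.28) lie to the right of the grey range, and all 9 points lie inside the dashed lines.

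Values are normalized reads, the deposited log2 value returned to the linear scale. The 2 libraries held an estimated 21138292 read pairs on genes in control and 20652476 in iFIRKO. A CPM of 1, which is 1 read in 1000000 of a library, corresponds to 41.8 normalized reads, and genes at that level or above in 1 or both libraries were tested. *Insr*, whose deletion is directed to adipocytes, stood at 4246 (control) and 3692 (iFIRKO), which gives no check of the adipocyte deletion. The markers of other cells differed between the libraries. Their counts past 1.5-fold stand beside 4.46% higher and 7.28% lower among all tested genes. Erythroid markers summed to 13463 normalized reads in control and 27012 in iFIRKO, with 6 of 6 tested genes more than 1.5-fold higher, while *Epb42* had 4 read pairs in control and 3 in iFIRKO. Kupffer cell and macrophage markers summed to 29295 and 19166, with 4 of 7 lower, and sinusoidal endothelial markers to 7700 and 5490, with 2 of 5 lower. Neutrophil markers (395.7 and 116.5, 2 of 2 tested genes lower) and B cell markers (313.4 and 122, 2 of 3 lower) were also lower, and T and NK cell markers were all below the minimum (138.7 and 69.5). Stellate markers summed to 3510 and 4006 and cholangiocyte markers to 2347 and 2026. Of the adipocyte markers, *Lep* was listed at 0 in both libraries, *Adipoq* and *Plin1* at 0 in control and at 2.01 normalized reads in iFIRKO, *Fabp4* had 469.9 and 469 and *Cidec* 17.9 and 108.4. The 5 hepatocyte markers with a value summed to 4808227 and 4553429, most of it *Alb* (4167154 and 3944155). Of these 5 markers 1 was lower, *Apoa1* (168382 and 87600, a log2 fold change of -0.94), and *Hnf4a* had 29516 and 28673. In bulk liver, fewer cells of a type and less RNA per cell cannot be told apart, and the part of these markers in the results below was not tested.

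*Nfe2l2* (ENSMUSG00000015839.6; GRCm38, chr2:75675513-75704641, minus strand, 5 exons) stood at 3126 normalized reads in control against 4199 in iFIRKO. The iFIRKO value was 34.3% higher, a log2 fold change of 0.43 with a 95% interval of 0.33 to 0.52. Only counting error is covered by such an interval. Among all tested genes, 8.0% had a higher fold change.

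*Keap1* (ENSMUSG00000003308.15; chr9:21229730-21239361, minus strand, 5 exons), which encodes the sensor that keeps NRF2 low, stood at 2158 normalized reads in control against 2288 in iFIRKO. At this depth its log2 fold change of 0.085 could not be distinguished from 0 (interval -0.036 to 0.21). The ratio of *Nfe2l2* to *Keap1* reads within a library, which does not depend on how the libraries were scaled, was 1.45 in control and 1.84 in iFIRKO. This is a log2 change of 0.34, with a counting interval of 0.19 to 0.49. An annotated antisense gene, *Gm16754*, overlaps *Keap1* and had 13.8 and 6.04 normalized reads.

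*Nqo1* (ENSMUSG00000003849.8; chr8:107388225-107403206, minus strand, 6 exons) encodes a quinone reductase that is widely used as a readout of NRF2 activity. It had the lowest level of the 9 genes, with 415.3 normalized reads in control against 545 in iFIRKO. Its log2 fold change of 0.39 had the widest interval of the 9, from 0.13 to 0.66, since it rested on 209 and 271 read pairs. The upper end of that interval lies past the 1.5-fold threshold, so a difference of that size was not distinguishable from the measured one at this depth.

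*Srxn1* (ENSMUSG00000032802.8; chr2:152105516-152111376, plus strand, 2 exons) encodes sulfiredoxin, which repairs overoxidized peroxiredoxins. It stood at 2010 normalized reads in control against 2444 in iFIRKO, which gives a log2 fold change of 0.28 (interval 0.16 to 0.40). The ratio of *Srxn1* to *Gsr* reads was 0.782 in control and 0.958 in iFIRKO.

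The glutathione synthesis genes encode the catalytic subunit (*Gclc*) and the modifier subunit (*Gclm*) of glutamate-cysteine ligase, the rate-limiting enzyme of glutathione synthesis. *Gclc* (ENSMUSG00000032350.9; chr9:77754535-77794485, plus strand, 16 exons) stood at 9999 normalized reads in control against 10247 in iFIRKO, and its log2 fold change was 0.035 (interval -0.021 to 0.092). *Gclm* (ENSMUSG00000028124.15; chr3:122245557-122270732, plus strand, 7 exons) had 7619 and 7719, a log2 fold change of 0.019 (interval -0.046 to 0.084). Both subunits were thus nearly level between the libraries, and their counting intervals exclude differences above 1.07-fold. The ratio of *Gclm* to *Gclc* reads was 0.762 in control and 0.753 in iFIRKO. *Gm6061*, a pseudogene annotated inside *Gclm* on the same strand, had 302.5 and 313.9 normalized reads, and reads shared between them would make the *Gclm* value uncertain.

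*Gsr* (ENSMUSG00000031584.16; chr8:33652523-33698163, plus strand, 13 exons) encodes glutathione reductase, which returns oxidized glutathione to its reduced form with NADPH. It stood at 2572 normalized reads in control against 2552 in iFIRKO, at a log2 fold change of -0.011 (interval -0.12 to 0.10). This was the smallest difference of the 9 genes.

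*Gpx1* (ENSMUSG00000063856.7; chr9:108338903-108340343, plus strand, 2 exons) encodes glutathione peroxidase 1, a selenoprotein that reduces hydrogen peroxide with glutathione. Its selenocysteine is read from a TGA codon that would otherwise end translation. In the GENCODE M21 coding sequence this is codon 47 of the 201 before the final stop, in exon 1, shown here in capitals to mark the codon that makes this mRNA depend on selenium.
*Gpx1*, chr9:108339439-108339465, plus strand: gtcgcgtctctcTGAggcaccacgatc
The *Gpx1* mRNA stood at 84157 normalized reads in control against 75168 in iFIRKO. Its log2 fold change was -0.16 (interval -0.18 to -0.14), and the narrow interval follows from the 42352 and 37336 read pairs behind it. *Gpx1* alone among the 9 had an interval that lay wholly below 0.

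*Cat* (ENSMUSG00000027187.10; chr2:103453849-103485160, minus strand, 13 exons) encodes catalase, the peroxisomal enzyme that breaks down hydrogen peroxide without glutathione. It stood at 94091 normalized reads in control against 103399 in iFIRKO, at a log2 fold change of 0.14 (interval 0.12 to 0.15). *Gpx1* and *Cat* therefore differed in opposite directions, and the ratio of *Cat* to *Gpx1* reads went from 1.12 in control to 1.38 in iFIRKO, a log2 change of 0.30 (counting interval 0.27 to 0.33). Erythroid cells also express both genes strongly, and the erythroid markers were higher in the iFIRKO library. The part of erythroid cells in the *Gpx1* and *Cat* values was not tested.

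Counting intervals excluded 0 for 5 of the 9 genes. Over all tested genes this was so for 39.9%, and for 48.2% of the 8126 genes whose mean was at least that of *Nqo1* in control. An interval that excludes 0 was therefore common among genes at or above the level of *Nqo1*. No such share was computed for genes as abundant as the other members. By the size of the difference in either direction, 19.7% of tested genes differed more than *Nfe2l2*, 22.5% more than *Nqo1*, 33.3% more than *Srxn1*, 53.9% more than *Gpx1* and 60.0% more than *Cat*.

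**Figure D2:**
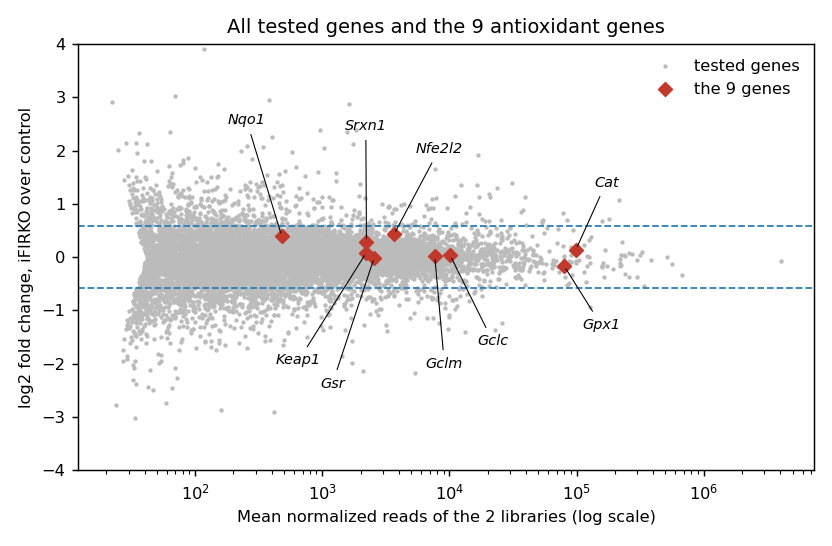
Log2 fold change of the iFIRKO over the control library against the mean normalized reads of both libraries (log axis) for all 13400 tested genes (grey) and the 9 antioxidant genes (red diamonds), with the 1.5-fold threshold (dashed). Of the tested genes, 2 lie outside the plotted range. The 9 genes spread from *Nqo1* at the low end to *Gpx1* and *Cat* among the most abundant genes, all between the dashed lines.

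Levels were compared between genes as normalized reads per kilobase of the principal transcript. In the control library the order was *Gpx1* (78504 per kilobase), *Cat* (36009), *Gclc* (2921), *Gclm* (1363), *Nfe2l2* (1263), *Gsr* (962.2), *Srxn1* (714.8), *Keap1* (597) and *Nqo1* (267.4). *Gpx1* and *Cat* thus stood far above the other 7 genes, and the ratio of *Cat* to *Gclc* per kilobase was 12.3 in control and 13.2 in iFIRKO. In the iFIRKO library *Nfe2l2* (1697) stood above *Gclm* (1381), and the rest of the order was as in control. The counting intervals of *Gclm* (1320 to 1407) and *Nfe2l2* (1201 to 1327) overlapped in control, and those of *Gsr* (903.2 to 1009) and *Srxn1* (821 to 919.5) overlapped in iFIRKO. With the exons of all coding transcripts joined, *Gclm* had 1290 and *Keap1* 479.6 per kilobase in control, and the order was kept. By reads alone *Cat* ranked 50 and *Gpx1* 58 among all rows in control, and 45 and 63 in iFIRKO.

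**Figure D3:**
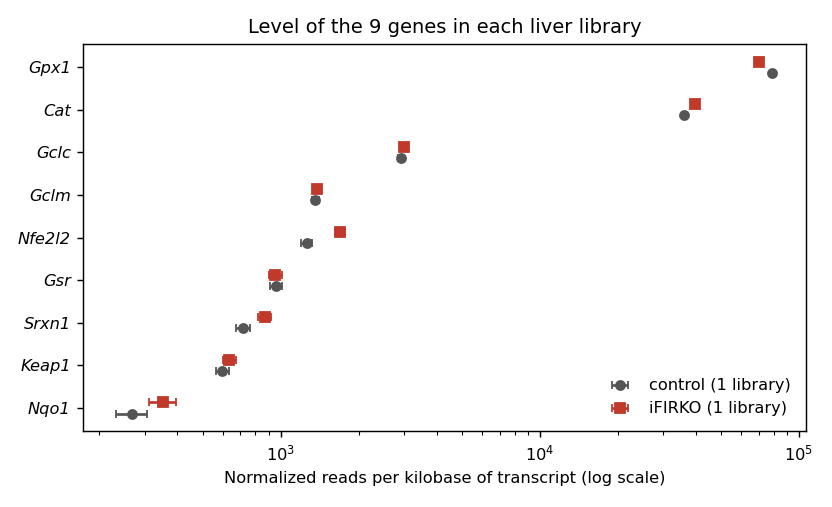
Normalized reads per kilobase of the principal transcript (log axis) for the 9 genes in the control (grey circles) and iFIRKO (red squares) libraries, with 95% exact Poisson intervals for counting error. *Gpx1* and *Cat* lie far above the rest, *Nqo1* is the lowest in both libraries, and *Nfe2l2* and *Gclm* change places in the order.

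The 12 regulators and partners of NRF2 and KEAP1 listed beside *Nfe2l2* and *Keap1* were all tested. None was more than 1.5-fold higher and 1 was lower, beside 4.46% and 7.28% of all tested genes. The median log2 fold change of the 12 was -0.0082. The lower gene was *Maff*, which encodes a small MAF protein, with 136.5 normalized reads in control against 47.98 in iFIRKO, at a log2 fold change of -1.43 (interval -2.24 to -0.82). The most abundant of these 12 were *Sqstm1*, *Nfe2l1* and *Mafg*. *Sqstm1*, whose protein p62 binds KEAP1, had 14856 and 14647 normalized reads. The NRF2 relative *Nfe2l1* had 5241 and 5675, and the small MAF gene *Mafg* had 3999 and 3268, a log2 fold change of -0.29.

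Beyond the 9 genes, other known NRF2 target genes included several with large differences. Of 29 such genes 28 were tested, and *Slc7a11*, which encodes the cystine transporter, was listed at 0 in both libraries. More than 1.5-fold higher were 7 of the 28, beside 4.46% of all tested genes, and 2 were lower, beside 7.28%. The median log2 fold change was 0.29, and 22 of the 28 lay above 0, beside 51.3% of all tested genes. These genes were listed with earlier results of the same libraries known, so their count is a description.

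The largest differences of that list were in *Ephx1*, *Me1* and *Gsta1*. *Ephx1*, encoding microsomal epoxide hydrolase, stood at 9247 normalized reads in control against 23690 in iFIRKO, at a log2 fold change of 1.36 (interval 1.31 to 1.41). *Me1*, encoding the cytosolic malic enzyme that supplies NADPH for fatty acid synthesis, had 6884 and 17594, a log2 fold change of 1.35. *Gsta1*, encoding a glutathione S-transferase, had 270 and 692 (1.34, interval 1.07 to 1.65), and its relative *Gstm3* had 2962 and 5884 (0.99). Glutathione S-transferase genes have close paralogs that could share reads, so their separate values are uncertain. *Ephx1* and several glutathione S-transferase genes are also targets of xenobiotic receptors, and *Me1* is also a lipogenic gene.

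In the opposite direction, *Osgin1*, an oxidative stress-induced gene, stood at 10136 normalized reads in control against 4597 in iFIRKO, at a log2 fold change of -1.14 (interval -1.21 to -1.07). *G6pdx*, encoding glucose-6-phosphate dehydrogenase of the pentose phosphate pathway, had 340.8 and 175.7 (-0.94). Other genes of that pathway in the list, *Tkt* (0.53), *Pgd* (0.47) and *Taldo1* (0.30), lay above 0 and short of the threshold. The other 3 genes more than 1.5-fold higher were *Gstm2* (0.61), *Ptgr1* (0.60) and *Aox1*, whose log2 fold change of 0.59 lay just past the threshold. The most abundant genes of the list were *Ftl1* (105445 and 123519) and *Fth1* (64414 and 77231), which encode the ferritin light and heavy chains, and *Gstm1* (38826 and 50769). Their log2 fold changes were 0.23, 0.26 and 0.39. The classical targets *Hmox1*, encoding heme oxygenase 1, and *Txnrd1*, encoding thioredoxin reductase 1, were at -0.042 (interval -0.23 to 0.15) and 0.091 (interval 0.023 to 0.16).

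**Figure D4:**
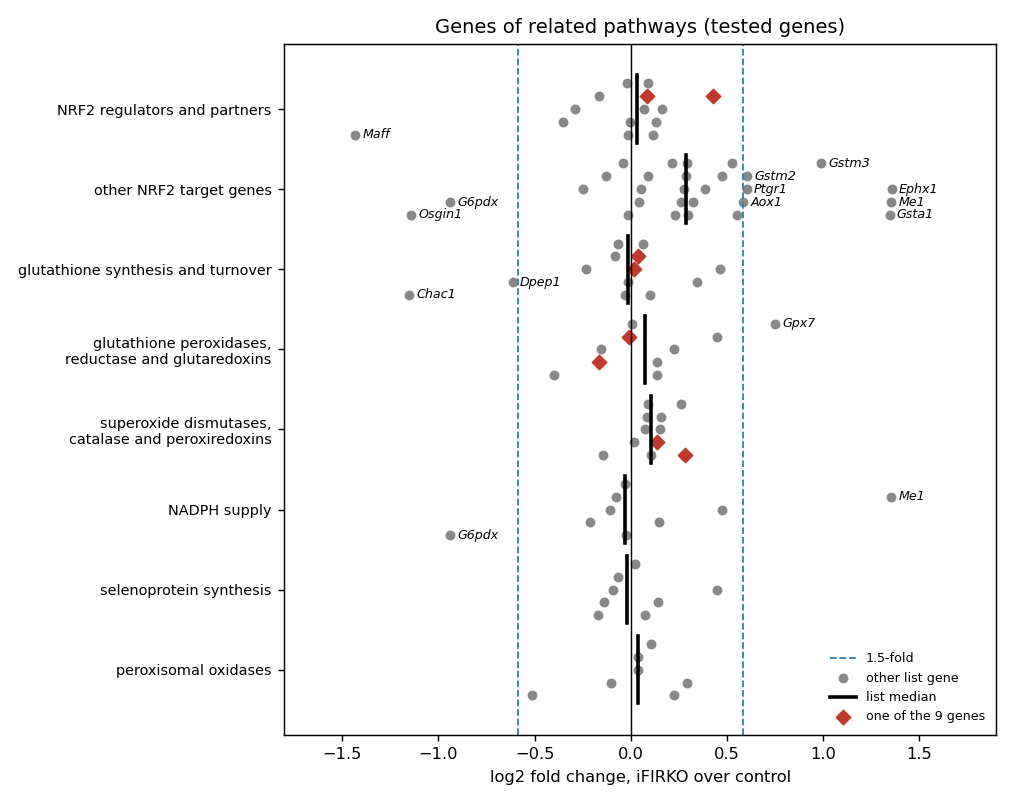
Log2 fold change of the iFIRKO over the control library for the tested genes of 8 related lists (grey points), with the 1.5-fold threshold (dashed). Those of the 9 genes that belong to a list are red diamonds, and *Nqo1*, which is in none of the lists, is not shown. Black bars are each list's median over all its tested genes, red diamonds included. Points are spread vertically for legibility. The other NRF2 target genes have the highest median, 0.29, and most of the named genes past the dashed lines.

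The antioxidant response element core was found in the start-site windows of 7 of the 26 other target genes with such a window. This stands beside 14.0% of all genes with a window and 16.9% of the tested ones. The list held 29 genes, and those without a window were not searched. Among the 9 target genes past the threshold a match was found for *Me1* and *G6pdx*, whose differences had opposite signs. How many of these 9 had a window was not counted. Both are shown with the core in capitals.
*Me1*, chr9:86695902-86695930, minus strand, core 6 bases before the start site: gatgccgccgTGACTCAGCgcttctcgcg
*G6pdx*, chrX:74428919-74428947, plus strand, against the direction of the gene, core 57 bases before the start site: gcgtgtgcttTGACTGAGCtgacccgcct

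Of the 11 tested genes of glutathione synthesis and turnover other than *Gclc* and *Gclm*, none was more than 1.5-fold higher and 2 were lower. Over all tested genes these shares were 4.46% and 7.28%. The median log2 fold change of the 11 was -0.032. *Chac1*, which encodes an enzyme that degrades glutathione, stood at 187.3 normalized reads in control against 81.97 in iFIRKO, at a log2 fold change of -1.15 (interval -1.74 to -0.63). *Dpep1*, encoding a dipeptidase, had 63.82 and 40.27, and its interval of -1.54 to 0.19 included 0. The most abundant of the 11 were *Cbs* (32315 and 34687) and *Cth* (16207 and 13787), which supply cysteine by transsulfuration, and the aminopeptidase gene *Lap3* (11488 and 12001). *Gss*, encoding the enzyme after glutamate-cysteine ligase, had 2845 and 3924, a log2 fold change of 0.46 (interval 0.36 to 0.56).

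Among the 8 tested glutathione peroxidase and glutaredoxin genes other than *Gpx1*, 1 was higher and none lower, beside 4.46% and 7.28% of all tested genes. Their median log2 fold change was 0.14. The higher gene, *Gpx7*, encodes a peroxidase of the endoplasmic reticulum and had 66.59 and 114.8 normalized reads, a log2 fold change of 0.75 (interval 0.13 to 1.42). *Gpx4*, which reduces lipid peroxides, had 7438 and 8677 (0.22, interval 0.16 to 0.29), so that *Gpx4* and *Gpx1* differed in opposite directions. The glutaredoxin genes *Glrx3* and *Glrx5*, which serve iron-sulfur proteins, had 2409 and 2651 (0.14) and 1902 and 2598 (0.45). Among the 9 superoxide dismutase and peroxiredoxin genes none passed the threshold, with a median log2 fold change of 0.091. Of these 9 genes 8 lay above 0, beside 51.3% of all tested genes. The exception was *Prdx2* (4128 and 3733, -0.14), a peroxiredoxin abundant in erythroid cells. *Prdx1* had 33673 and 35725 normalized reads, *Sod1* 24806 and 25073, and *Prdx6* 20130 and 22371.

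The genes that serve these enzymes were described in the same way. Of 9 NADPH supply genes, *Me1* was higher and *G6pdx* lower, beside 4.46% and 7.28% of all tested genes. The median log2 fold change of the 9 NADPH supply genes was -0.03. The most abundant were *Aldh1l1* (68638 and 59162), *H6pd* (20744 and 19276) and *Idh1* (18921 and 18537). None of the 8 selenoprotein synthesis genes passed the threshold, with a median of -0.022. *Selenop*, the selenium carrier of plasma, had 251378 and 264897 normalized reads, a log2 fold change of 0.076. *Sephs2*, which makes the selenium donor, had 35032 and 31108, a log2 fold change of -0.17. *Scly* had 5122 and 4654. Of the peroxisomal oxidases, which form the hydrogen peroxide that catalase removes, none of 7 tested genes passed the threshold. Above 0 lay 5 of the 7, beside 51.3% of all tested genes. *Uox* had 45240 and 52782 (0.22) and *Pipox* 11624 and 11948 (0.04), beside the 0.14 of *Cat*. Below 0 lay *Paox*, with 2378 and 1662 (-0.52), the largest difference of this list, and *Ddo*, with 1239 and 1152 (-0.11).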

How the data were processed

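Liver mRNA of 1 control and 1 iFIRKO sample was sequenced on an Illumina NovaSeq instrument from TruSeq libraries that keep strand. For each gene symbol the authors deposited a log2 normalized read count, in which a scaled count of at most 1 appears as 0. The build is mm10 per the labels, and the aligner, the counter and its use of strand are not given in the sources used here. These log2 values were turned back into linear normalized reads. The commonest low value was taken as 1 read pair (1.9871 normalized reads in control, 2.0133 in iFIRKO). Only 46.3% and 47.8% of low values were whole pairs within 0.01, so no count test was run, and intervals on these estimated pairs are approximate. The fold change used a pseudocount of 4.18 normalized reads, a CPM of 0.1. Intervals are exact Clopper-Pearson intervals at 95% on read pairs, those of ratios between genes are normal approximations, and both cover counting error only. No fold change is printed for a gene with 3 read pairs or fewer in either library, but such genes are counted among all genes tested (5 of them) and in the settings of the closing section.

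The 9 genes and all lists were chosen with earlier results of these data known. Named from each list were up to 6 genes past 1.5-fold by size and up to 3 more by level. *Gstm2*, *Ptgr1*, *Aox1*, *Hmox1*, *Txnrd1*, *Slc7a11*, *Tkt*, *Pgd*, *Taldo1*, *Gss*, *Prdx2*, *Paox* and *Ddo* were named after their values were seen. The same holds for the cell type markers beyond the summed levels. Of the 6 hepatocyte markers listed, 5 are reported, and 1 erythroid marker and 1 peroxisomal oxidase are not reported here. Positions, exons and lengths came from GENCODE M21 on GRCm38 and promoters from RefSeq. Steps were tested on simulated data. The scripts ran under Python 3.11.15 with matplotlib 3.10.9, scipy 1.17.1, pandas 2.3.3 and numpy 2.4.6.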

Additional observations from a re-analysis of the deposited data

How the results depend on the processing

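Across 10 alternatives set with earlier results known, none of the 9 genes passed the fold threshold. Several of these settings could not change that outcome. The changes of minimum and the summing of duplicate symbols left the fold change of each of the 9 genes as it was. The fold of 2 is only a stricter threshold. The other settings changed the pseudocount or the scaling, with scaling factors of 1.0073, 0.9981 and 1.0084 for iFIRKO over control. Under these other settings each of the 9 genes kept its sign and stayed inside its counting interval. *Nqo1* moved most, from 0.36 with a pseudocount at a CPM of 1 to 0.39 as a plain ratio, and *Gclm* came nearest to 0, at 0.0067 with library totals set without the 20 most abundant genes. Genes called among all those tested were 371 higher and 576 lower with a pseudocount at a CPM of 1, 1960 and 2620 without a minimum, 288 and 440 with a minimum CPM of 5, and 209 and 267 with a fold of 2. The numbers of genes tested were 21768 without a minimum and 10145 with a minimum CPM of 5, and 13400 otherwise in these settings. Of the other NRF2 target genes, 5 to 7 were higher under every setting but the fold of 2, which left 3, and their median stayed between 0.28 and 0.29. *Maff*, *Chac1*, *Dpep1* and *Gpx7* are not tested at a minimum CPM of 5, and *Dpep1* and *Gpx7* fall short of the threshold with a pseudocount at a CPM of 1. *Dpep1* is also not tested with the minimum in both libraries, and *Dpep1*, *Gpx7* and *G6pdx* fall short of a fold of 2. The joined-exon length was chosen after seeing the data. No paired analysis was possible because there is only 1 library in a group, and for the same reason no replicate could be left out. At this depth *Nqo1* has the least precise value of the 9 genes.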
